A study of Mus musculus with 4 samples.

Results

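The flank beyond Dad1 is the stretch of mouse chromosome 14 from 54.88 to 55.80 Mb (build mm9) that follows the 3′ end of Tcra/Tcrd, the locus of the T cell receptor alpha and delta chains. Its members were the 237 HindIII fragments with their midpoint in it that held reads in at least 1 of 16 libraries, of 26314 such fragments on chromosome 14 and 506753 on all chromosomes. Beyond the presence of reads in any library, the choice used position and no contact value. The members were read as 46 bins of 20 kb, with 1 to 13 fragments a bin (median 5) and a median fragment length of 2720 bp. Of the 237 fragments, 9 held reads in all 16 libraries, 164 in at least 8 libraries and 9 in a single library.

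Tcra/Tcrd is a nested locus: the segments of the delta chain lie inside those of the alpha chain, and thymocytes rearrange delta segments before alpha segments. Ed is the Tcrd enhancer, and TEA (T early alpha) is a promoter element upstream of the Tcra joining segments. The joining segments are followed by the constant gene, the Tcra enhancer and Dad1, a broadly expressed gene for a subunit of the oligosaccharyltransferase, and then by a gene-dense stretch. In the RefSeq annotation of GRCm38.p6 the coding genes that follow Dad1 are, in order, Abhd4, Olfr49, Oxa1l, Slc7a7, Mrpl52, Mmp14, Lrp10, Rem2 and Prmt5, with the proteasome genes Psmb5 and Psmb11 and the cardiac myosin genes Myh6 and Myh7 farther on. Oxa1l inserts proteins into the inner mitochondrial membrane, Mrpl52 is a mitochondrial ribosomal protein, Mmp14 is a membrane-bound matrix protease and Prmt5 is an arginine methyltransferase. That annotation is of another build than the files, so no gene was assigned to a bin.

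In 4C-seq the fragments ligated to 1 chosen fragment, the viewpoint, are amplified by inverse PCR and sequenced, so the value of a fragment measures how often it was ligated to the viewpoint. DN samples were CD4- CD8- thymocytes from 3-week-old litters of C57BL/6 Rag2-/- mice, which cannot rearrange antigen receptor genes. B samples were naive B splenocytes of wild-type C57BL/6 mice, which can rearrange them, and for which the protocol text repeats that of the thymocytes. There were 2 samples of each cell type, all amplified from the same 4 viewpoints. Tissue, cell type and Rag2 genotype differ together between the groups and cannot be told apart. Nothing says whether the samples of a group came from separate litters, so p-values measure only the spread between these samples, which may be technical.

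The INT1 viewpoint lay at 54677060 to 54677623 and INT2 at 54680988 to 54683873. The labels do not spell out either name. The Ed viewpoint lay at 54763263 to 54765182 and the TEA viewpoint at 54769627 to 54773311. The flank began 203 kb from INT1, 198 kb from INT2, 116 kb from Ed and 109 kb from TEA. Values are percentages of a library's chromosome 14 value (RPM, which are reads scaled to the mapped reads of a library, with the viewpoint fragment and its neighbour on either side left out).

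The INT1, INT2 and Ed libraries held between 1220738 and 15722920 mapped reads, of which between 169129 and 1975433 lay on chromosome 14 outside the viewpoint. Read numbers were not used for TEA. Reads in the flank numbered 167200 and 152600 for INT1 in DN cells, against 53363 and 75695 in B cells, and the fewest of these 3 viewpoints, 3128, were in Ed DN replicate 1. Chromosome 14 held 11.4% to 28.8% of a DN library's value and 5.96% to 8.98% of a B library's. Per the file headers 0 sequencing folders held both cell types, so sequencing folder and cell type cannot be told apart. PCR reads were counted without molecular identifiers, so a limit set from reads covers counting error only.

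The flank as a whole held shares of the chromosome that overlapped between the cell types, while its contacts lay nearer to the locus in DN cells than in B cells. From INT1 the flank held 8.46% and 13.6% of the chromosome 14 value in DN cells, against 9.17% and 9.72% in B cells. From INT2 it held 6.27% and 10.3% in DN cells, against 8.71% and 8.73% in B cells. The B samples of both viewpoints fell between the DN samples. From Ed it held 1.85% and 4.67% in DN cells, against 2.99% and 2.29% in B cells. From TEA it held 4.22% and 9.36% in DN cells, against 4.57% and 5.09% in B cells. The groups overlapped at all 4 viewpoints, and DN replicate 2 was above DN replicate 1 at each, by 1.61 times for INT1, 1.64 for INT2, 2.53 for Ed and 2.22 for TEA. The B samples differed less, with replicate 2 at 1.06, 1.003, 0.766 and 1.11 times replicate 1 in the same order.

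The flank was tested as 1 of 134 tiles of 0.92 Mb on chromosome 14 (limma, Benjamini-Hochberg over the tiles of a viewpoint). Its DN minus B difference on the log2 scale was 0.18 ± 0.27 (SE) for INT1 with an adjusted p of 0.534, and -0.12 ± 0.26 for INT2 with an adjusted p of 0.702. It was 0.17 ± 0.51 for Ed with an adjusted p of 0.834, and 0.38 ± 0.40 for TEA with an adjusted p of 0.386. The flank was not called at any viewpoint, and 0 of 134 tiles (0%) were called higher for INT1 and 1 of 134 (0.746%) for each of the others, with 0% lower at all 4. Unadjusted p was under 0.05 in 63 of the INT1 tiles, and that of the flank was 0.526. Without DN replicate 1 the difference was 0.53 for INT1 (limma adjusted p 0.0335), 0.24 for INT2 (0.0221) and 0.96 for TEA (0.0076). That fit has 1 DN library and assumes that it varies like the B libraries. Without DN replicate 2 the difference was -0.16 for INT1, -0.50 for Ed and -0.19 for TEA. With library size taken as the chromosome 14 value above the level per fragment of the other chromosomes, the difference was -0.62 for INT1 (limma adjusted p 0.00799), -1.29 for INT2 (5.7e-10) and -1.08 for TEA (0.0152). With each captured fragment counted once it was 0.70 for INT2 (limma adjusted p 0.0359), a call in the opposite direction.

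The neighbouring tile on the side of the locus was called higher in DN cells at 3 of the 4 viewpoints, and the tile beyond the flank was not called. The tile from 53.96 to 54.88 Mb, which holds the viewpoints, had a DN minus B difference of 0.89 ± 0.16 on the log2 scale for INT1 (SE, limma adjusted p 0.0952) and was higher by 1.77 ± 0.15 for INT2 (0.0154). For Ed it was higher by 0.74 ± 0.15 (limma adjusted p 0.000238) and for TEA by 1.84 ± 0.20 (0.00597). The tile from 55.80 to 56.72 Mb was at -0.56 for INT1, -0.58 for INT2, -1.57 for Ed and -0.40 for TEA, with no call.

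The 4 viewpoints differed in how much of their contact fell in the flank, in the same order in every sample. INT1 was highest, INT2 followed, TEA was the third and Ed was lowest in all 4 samples, although TEA and Ed lie closer to the flank. The INT1 share exceeded that of INT2 by 0.462 to 3.30 percentage points (mean 1.73), and that of TEA by 4.23 to 4.63 points (mean 4.43). INT2 exceeded TEA by 0.934 to 4.14 points (mean 2.69), and TEA exceeded Ed by a mean of 2.86 points. Each of the 6 pairs gave p = 0.125 in an exact two-sided sign-flip permutation test over the 4 samples, the smallest it can give, and 0.125 after adjustment over the 6 pairs. Of the 237 fragments, INT1 captured 178 and 205 in DN cells, against 184 and 184 in B cells. Ed captured 51 and 109 in DN cells, against 58 and 55 in B cells.

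The position by which 50% of the flank's value was reached, counted outwards from its start, was nearer in both DN samples than in both B samples at every viewpoint. From INT1 it lay at 188 and 201 kb in DN cells, against 377 and 370 kb in B cells. From INT2 it lay at 208 and 194 kb in DN cells, against 329 and 329 kb in B cells. The DN libraries of these viewpoints were within 14 kb of each other, and the closest DN and B libraries were 169 kb apart for INT1 and 121 kb for INT2. From Ed it lay at 257 and 194 kb in DN cells, against 468 and 523 kb in B cells. From TEA it lay at 222 and 182 kb in DN cells, against 388 and 366 kb in B cells. The widest gap between samples of a group was 63.3 kb, in the DN libraries of Ed, where the gap between the groups was 210 kb.

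**Figure D1:**
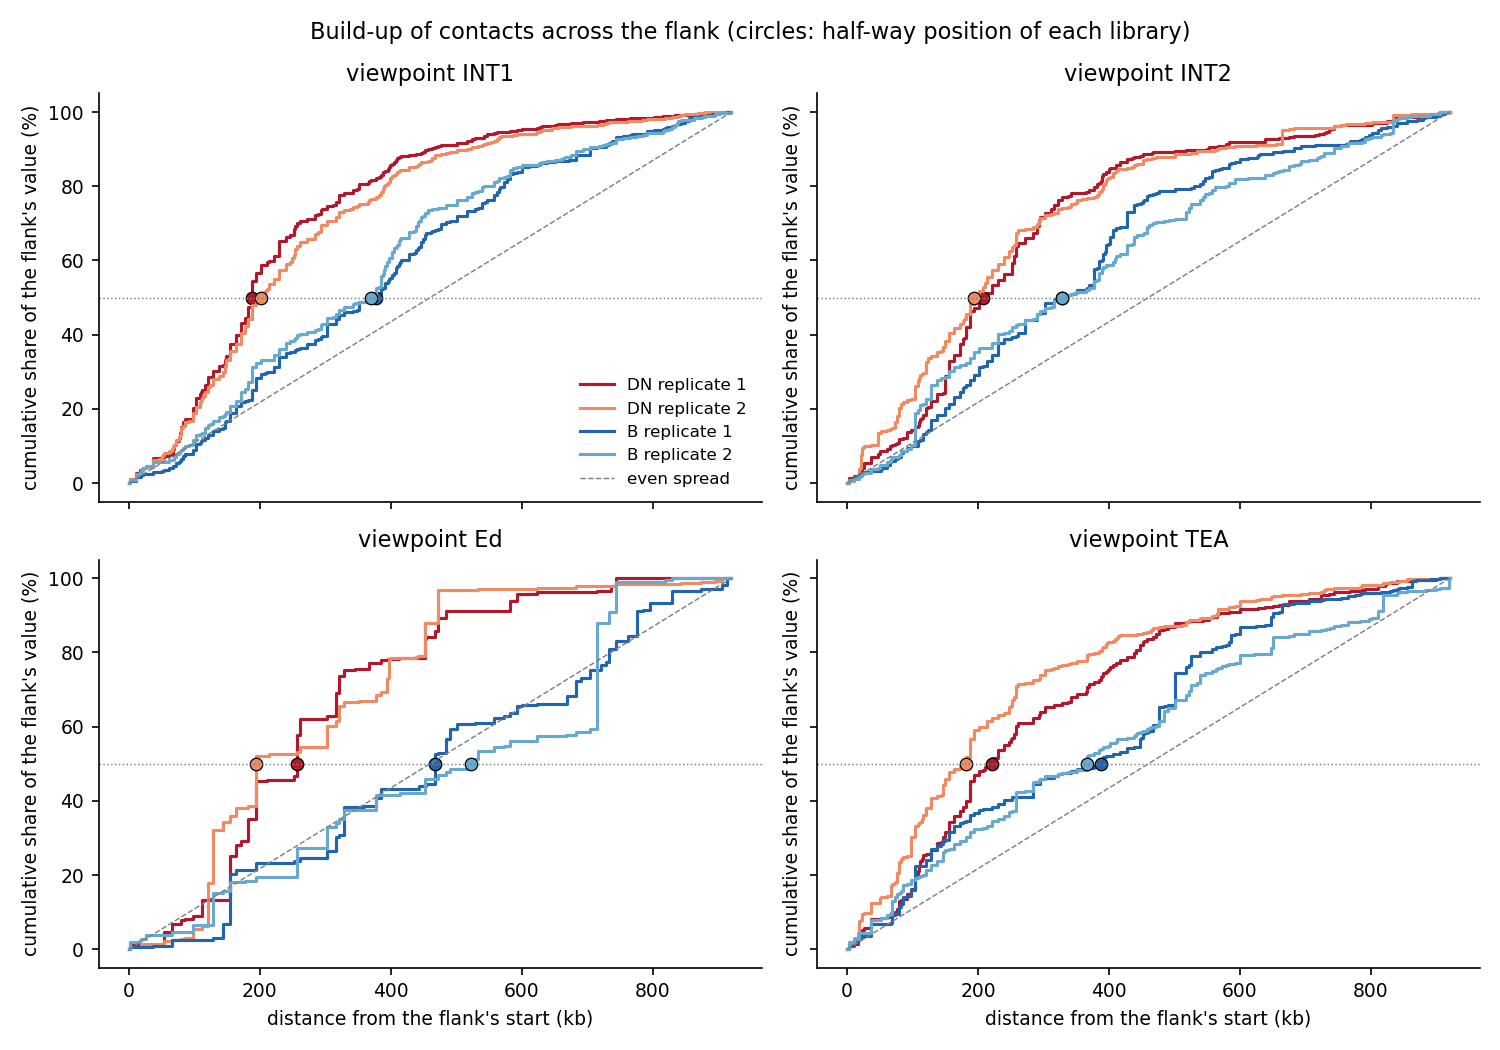
Cumulative share of the flank's value (%) against distance from the flank's start (kb) for each library, 1 panel for each viewpoint, with circles at 50% and a dashed line for an even spread. In each panel both DN curves reach 50% first, between 182 and 257 kb, and both B curves follow between 329 and 523 kb.

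As means the 50% position was 194 ± 9.36 kb in DN cells and 374 ± 5.22 kb in B cells for INT1 (SD, n = 2 each). It was 201 ± 9.74 kb in DN cells and 329 ± 0 kb in B cells for INT2, 226 ± 44.8 kb in DN cells and 495 ± 39.1 kb in B cells for Ed, and 202 ± 28.2 kb in DN cells and 377 ± 15.7 kb in B cells for TEA. Each difference gave p = 0.3333 in an exact two-sided permutation test, the smallest that 2 against 2 allows, and 0.3333 after adjustment over the 4 viewpoints. The measure is a position within a library, so library size does not enter it. Both DN samples also lay nearer than both B samples at all 4 viewpoints for the position at 80% of the value (351 to 452 kb in DN cells, 529 to 733 kb in B cells), with the far level subtracted and with the highest fragments capped.

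Counting each captured fragment once, whatever its reads, moved the difference in the 50% position to -0.18 kb for INT1, where the groups overlapped, -59.2 kb for INT2, -106 kb for Ed and -27.1 kb for TEA. With that measure both DN samples were still nearer than both B samples for INT2, Ed and TEA. For TEA the groups nearly touched, at 389.7 and 408.4 kb in DN cells, against 409.0 and 443.2 kb in B cells. For INT1 the position was then 397 and 427 kb in DN cells, against 408 and 416 kb in B cells.

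Within the flank, a larger share of the contacts lay at the near end, and a smaller share at the far end, in DN cells. The first 230 kb, from 54.88 to 55.11 Mb with 56 fragments, held 65.2% and 57.6% of the flank's INT1 value in DN cells, against 34.0% and 36.1% in B cells. From INT2 it held 54.68% and 59.0% in DN cells, against 37.8% and 40.2% in B cells. From Ed it held 45.5% and 52.6% in DN cells, against 23.3% and 19.6% in B cells. From TEA it held 53.7% and 63.0% in DN cells, against 39.1% and 35.2% in B cells. Groups did not overlap in that stretch at any viewpoint. The division into 4 stretches of 230 kb was chosen after the bins had been seen and was not tested.

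The last 230 kb, from 55.57 to 55.80 Mb with 62 fragments, held 2.82% and 3.74% of the flank's INT1 value in DN cells, against 11.5% and 10.4% in B cells. From INT2 it held 6.39% and 4.40% in DN cells, against 9.63% and 13.97% in B cells. From Ed it held 3.64% and 2.19% in DN cells, against 26.9% and 41.5% in B cells, and 1 fragment at 55594604 to 55595208 carried 28.7% of the flank in B replicate 2. From TEA it held 6.13% and 4.39% in DN cells, against 6.75% and 15.1% in B cells, the narrowest separation of the 4. As a share of chromosome 14, the groups overlapped in the first stretch for INT2, with 3.43% and 6.07% in DN cells, against 3.29% and 3.51% in B cells. They also overlapped in the last stretch for TEA, with 0.258% and 0.410% in DN cells, against 0.308% and 0.769% in B cells, and did not overlap in these stretches at the other viewpoints. The first stretch held 8.55 to 24.0 times the value of the last in DN libraries, and 0.471 to 5.80 times in B libraries, where both Ed libraries were below 1.

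**Figure D2:**
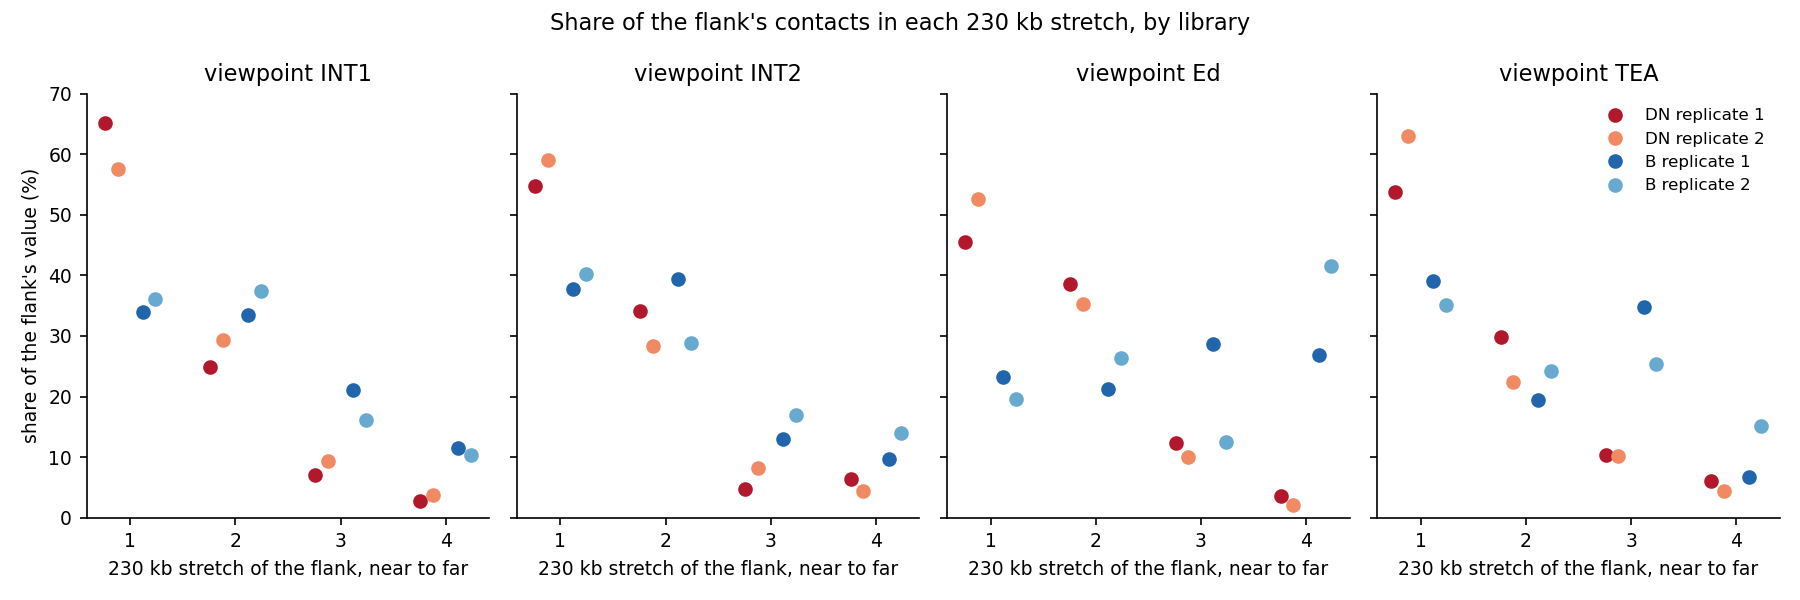
Share of the flank's value (%) in each successive 230 kb stretch, 1 point for each library, 1 panel for each viewpoint. DN points lie above B points in stretch 1 and below them in stretches 3 and 4 at all 4 viewpoints, and stretch 2 has no common order.

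In stretch 3, from 55.34 to 55.57 Mb, DN shares were 7.05% and 9.33% of the flank for INT1, against 21.0% and 16.1% in B cells. They were 4.83% and 8.21% in DN cells for INT2, against 13.1% and 17.0% in B cells, and 10.3% and 10.2% in DN cells for TEA, against 34.7% and 25.4% in B cells. For Ed the DN shares were 12.3% and 10%, close to 1 of the B shares, 28.6% and 12.6%. In stretch 2 the order varied, with DN below B for INT1, DN above B for Ed and overlapping groups for INT2 and TEA.

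Fragments captured in the first stretch were more numerous in DN cells at every viewpoint. INT1 captured 52 and 53 of 56 in DN cells, against 51 and 48 in B cells, and TEA captured 51 and 51 in DN cells, against 42 and 40 in B cells. In the last stretch the captured share overlapped between the groups for INT1, Ed and TEA, and for INT2 it was 33.9% and 43.5% in DN cells, against 54.8% and 54.8% in B cells.

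Along the bins, INT1 gave the most even profile and Ed the most broken one. No bin was at 0 in either B library of INT1, and 15 and 5 of 46 bins were at 0 in the DN libraries of Ed, against 9 and 11 in its B libraries. The median of the 23 bins nearest to the locus was 0.268% and 0.505% of chromosome 14 in DN cells for INT1, against 0.232% and 0.289% in B cells. The median of the 23 farthest bins was 0.0266% and 0.0765% in DN cells for INT1, against 0.103% and 0.0837% in B cells. INT2 had near medians of 0.210% and 0.383% in DN cells, against 0.272% and 0.227% in B cells, and far medians of 0.0257% and 0.0319% in DN cells, against 0.0803% and 0.103% in B cells. In both viewpoints the near medians overlapped between the groups, and the far medians were lower in DN cells. From TEA the near medians were higher in DN cells, at 0.139% and 0.205%, against 0.115% and 0.108% in B cells. Its far medians overlapped, at 0.0266% and 0.0438% in DN cells, against 0.0349% and 0.0416% in B cells. From Ed the near medians were higher in DN cells and the far medians lower.

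**Figure D3:**
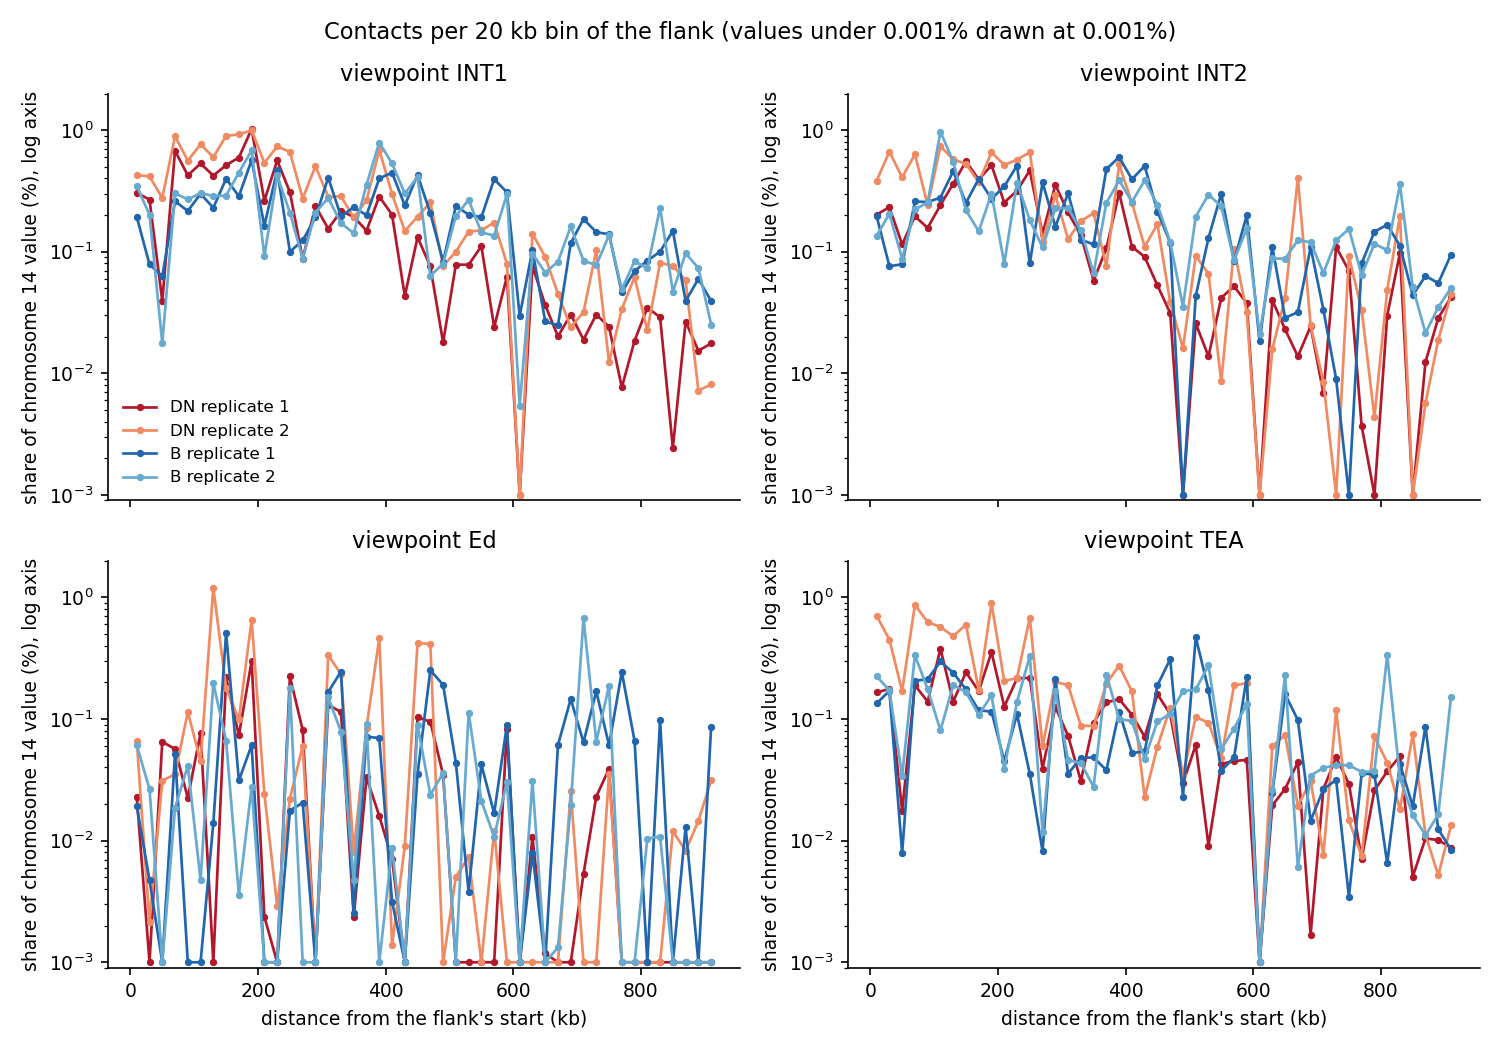
Share of the chromosome 14 value (%, log axis, values under 0.001% drawn at 0.001%) in each 20 kb bin against distance from the flank's start (kb), 1 line for each library and 1 panel for each viewpoint. INT1 and INT2 fall towards the far end in both cell types, and the bin 600 kb from the start is low in every panel, with 1 fragment.

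The bin from 55.06 to 55.08 Mb, with the fragments at 55064222 to 55071476 and 55071483 to 55076479, was among the 5 highest bins of all 4 viewpoints. From INT1 it held 1.02% and 0.998% of the chromosome 14 value in DN cells, against 0.566% and 0.681% in B cells. From INT2 it held 0.514% and 0.657% in DN cells, against 0.272% and 0.300% in B cells. From Ed it held 0.300% and 0.656% in DN cells, against 0.0610% and 0.0276% in B cells. From TEA it held 0.355% and 0.894% in DN cells, against 0.115% and 0.157% in B cells. Of the 46 bins it alone had the lower DN library above the higher B library at all 4 viewpoints. Its difference was not called at any of them in the fits of 1 viewpoint each. In 1 fit over all 16 libraries its Ed difference was 3.40 on the log2 scale. It was then among the 4 flank bins called higher for Ed, against 17 of 141 bins over the region. Bins outside the flank were not counted over the viewpoints. Among all bins tested from 53.2 to 56.2 Mb, that order was found in 57% for INT1, 40% for INT2, 34.7% for Ed and 50.7% for TEA. The libraries of a sample share chromatin, so the 4 viewpoints are not 4 independent repeats.

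The other high bins were mostly near the locus. For INT1 they were the bins starting at 55.04, 55.10, 55.26 and 54.94 Mb, for INT2 those at 54.98, 55.00, 55.26 and 55.10 Mb, and for TEA those at 54.94, 54.98, 55.12 and 54.88 Mb. For Ed they were the bins starting at 55.00, 55.02, 55.34 and 55.18 Mb, and the highest of them, at 55.00 Mb, rested on 1 library. That bin held 0.000591% and 1.20% of the Ed value in DN cells, against 0.0139% and 0.197% in B cells. The bin at 55.26 Mb held 0.284% and 0.686% of the INT1 value in DN cells, against 0.39995% and 0.791% in B cells, and its groups overlapped.

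The first bin, from 54.88 to 54.90 Mb, was not the highest of the flank at any viewpoint. From INT1 it held 0.304% and 0.426% in DN cells, against 0.194% and 0.345% in B cells, and from TEA 0.166% and 0.706% in DN cells, against 0.134% and 0.226% in B cells. From INT2 it held 0.202% and 0.383% in DN cells, against 0.196% and 0.135% in B cells, and from Ed 0.0231% and 0.0662% in DN cells, against 0.0193% and 0.0612% in B cells. Only the INT2 groups were apart in that bin. The last bin, from 55.78 to 55.80 Mb, held 0.0176% and 0.00810% of the INT1 value in DN cells, against 0.0393% and 0.0252% in B cells. From INT2 the last bin held 0.0423% and 0.0445% in DN cells, against 0.0946% and 0.0504% in B cells. It overlapped between the groups for Ed and TEA.

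Peaks that stood out from their neighbours appeared only from Ed. A local high was a bin at least 2 times the median of the 5 bins on each side in all 4 libraries of a viewpoint, and INT1, INT2 and TEA had 0. Ed had 5, starting at 55.02, 55.06, 55.18, 55.20 and 55.60 Mb. The bin at 55.02 Mb held 0.221% and 0.179% of the Ed value in DN cells, against 0.514% and 0.0666% in B cells. The bin at 55.18 Mb held 0.131% and 0.336% in DN cells, against 0.167% and 0.151% in B cells, and that at 55.20 Mb held 0.114% and 0.234% in DN cells, against 0.246% and 0.0788% in B cells. These bins had overlapping groups. The bin at 55.60 Mb held 0.0231% and 0.000612% in DN cells, against 0.169% and 0.0651% in B cells, and in both DN libraries the median of its neighbours was at or near 0. Ed captured the fewest fragments, and the part of depth in these local highs was not tested.

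Single fragments carried little of the flank except from Ed. The fragment at 55029767 to 55040602, of 10836 bp, had the highest mean share, 3.45% of the flank over the 16 libraries, and held reads in all of them. It carried 7.32% of the flank from Ed and 1.85% to 2.40% from the other viewpoints. The next were 55071483 to 55076479 with 2.93%, 55004050 to 55013411 with 2.84%, 55064222 to 55071476 with 2.49% and 55135006 to 55139637 with 2.40%. The neighbours 55064222 to 55071476 and 55071483 to 55076479 lie in the same bin and differed by viewpoint. The longer one carried 4.28% of the flank from INT1 and 3.31% from TEA but 0.00327% from Ed, where it had reads in 1 of 4 libraries, while the shorter one carried 6.71% from Ed. The highest fragment of a library carried 3.26% to 8.66% of the flank in INT1, INT2 and TEA libraries and 11.9% to 28.7% in Ed libraries.

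Bins were compared between the cell types in 1 fit for each viewpoint over all 20 kb bins from 53.2 to 56.2 Mb (limma, Benjamini-Hochberg over those bins). From INT1 the fit called 1 flank bin higher and 5 lower in DN cells, against 44 of 142 bins (31%) higher and 5 of 142 (3.52%) lower over the whole region, so the 5 lower bins were all in the flank. From INT2, Ed and TEA it called 0 flank bins in either direction, against 7.59%, 0.847% and 6.94% of the region's bins higher in the same order, and 0% lower. Unadjusted p was under 0.05 in 18 flank bins for INT1, 9 for INT2, 2 for Ed and 2 for TEA. These numbers were not set against the rest of the region, so they show nothing particular to the flank. The lowest adjusted p of a flank bin in limma was 0.0787 for INT2, 0.181 for Ed and 0.140 for TEA. On recovered reads edgeR, with chromosome 14 reads as the library size, called 0 flank bins for INT2 and 1 lower for Ed. Over the region it called 3 bins higher for INT2, and 2 higher and 1 lower for Ed. DESeq2, with size factors of its own, called 12 flank bins lower for INT2 and 6 for Ed, against 14 of 145 and 9 of 118 over the region. Of the 46 flank bins, 46 passed the filter on low values for INT1 and for INT2, 37 for Ed and 45 for TEA.

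The bin called higher from INT1 was 54.94 to 54.96 Mb. It held 0.676% and 0.892% of the chromosome 14 value in DN cells, against 0.261% and 0.302% in B cells, a 2.76-fold difference (log2 1.47 ± 0.38 SE, limma adjusted p 0.0269). Of those called lower, 55.46 to 55.48 Mb had the smallest p and held 0.0623% and 0.0796% in DN cells, against 0.308% and 0.297% in B cells (log2 -2.09 ± 0.48, limma adjusted p 0.0189). The bin 55.32 to 55.34 Mb held 0.132% and 0.194% in DN cells, against 0.429% and 0.412% in B cells (log2 -1.39, limma adjusted p 0.0416). In all of these, both DN libraries were on 1 side of both B libraries.

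Farther out, the bin 55.56 to 55.58 Mb held 0.0304% and 0.0240% of the INT1 value in DN cells, against 0.118% and 0.161% in B cells (log2 -2.31, limma adjusted p 0.04997, just under the threshold). The bin 55.62 to 55.64 Mb held 0.0241% and 0.0123% in DN cells, against 0.139% and 0.137% in B cells (log2 -2.93, limma adjusted p 0.0351). The bin 55.48 to 55.50 Mb, with 1 fragment, held 0 reads in both DN libraries, against 0.0297% and 0.00539% in B cells (limma adjusted p 0.0239). Its fitted difference was -3.81 on the log2 scale. Set against a floor of 3 reads in each DN library, the B mean was 83.8 times that floor. Without B replicate 1, which carried most of the B value, it was 25.7 times. That floor covers counting error only and does not bound the contact of a single fragment. From INT2 the same bin held 0 reads in both DN libraries too, against 0.0183% and 0.0211% in B cells.

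With any 1 of the 4 INT1 libraries left out the fit called 0 higher bins and 0 or 1 lower bins, with 1 library in an arm. The fitted differences of the 6 bins kept their sign in each of these fits, and ranged from 1.27 to 1.67 for the bin at 54.94 Mb and from -2.26 to -1.91 for that at 55.46 Mb. On recovered reads, edgeR with chromosome 14 reads as the library size called 2 lower bins in the flank, and 2 over the region. DESeq2 estimated its own size factors from the bins tested and called 24 in the flank, and 31 over the region. The median of the 142 bins was 1.13 in edgeR and 0.17 in DESeq2, so these counts differ in library size as well as in tool. The direction of a single bin also moved with library size: 20 of 46 INT1 bins had a fitted difference above 0 with chromosome 14 as the library size, 28 with all chromosomes, 10 with the excess over other chromosomes and 7 with TMM factors. The median of all 142 bins tested moved with it, at 1.33 on the log2 scale with chromosome 14, 2.42 with all chromosomes, 0.54 with the excess and 0.30 with TMM factors.

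**Figure D4:**
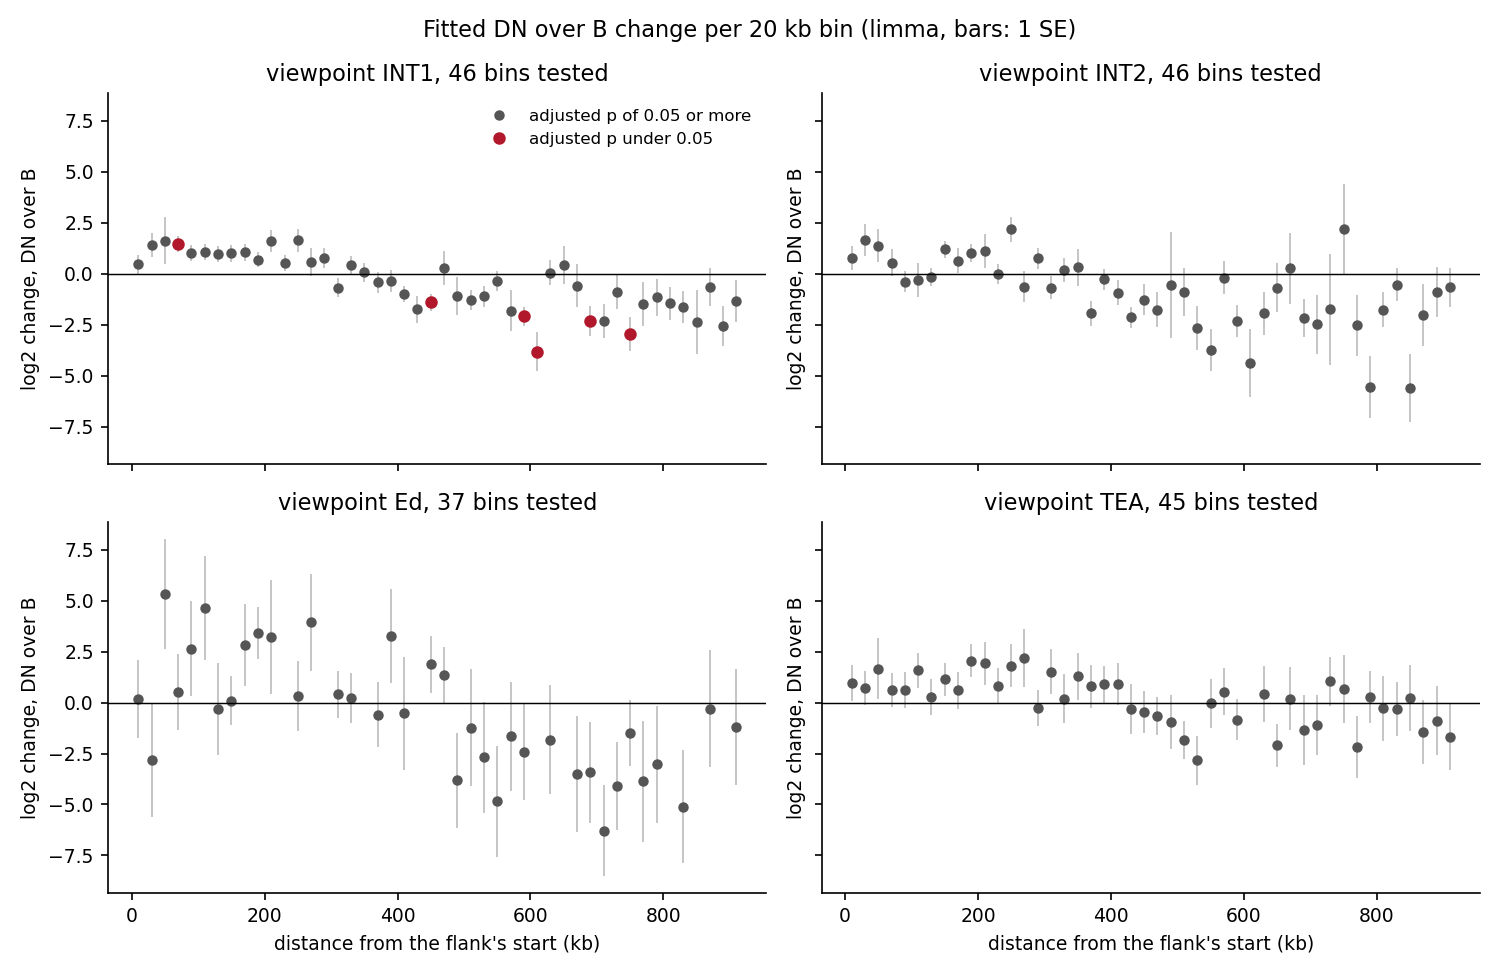
Fitted DN minus B difference (log2, limma, bars of 1 SE) for each tested 20 kb bin against distance from the flank's start (kb), 1 panel for each viewpoint, with bins at adjusted p under 0.05 in red. INT1 has 1 red bin above 0 and 5 below it, and in every panel more points lie above 0 near the start than at the far end.

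Read as counts without a threshold, the near and far bins split by direction. Among the 23 near bins, both DN libraries were above both B libraries in 13 for INT1, 7 for INT2, 8 for Ed and 12 for TEA, and below in 3, 6, 1 and 0. Among the 23 far bins they were above in 0, 0, 0 and 1, and below in 14, 15, 7 and 5, in the same order of viewpoints. Over the flank bins tested, both DN libraries were above in 28.3% for INT1, 15.2% for INT2, 18.9% for Ed and 28.9% for TEA, against 57%, 40%, 34.7% and 50.7% of all bins of the region. They were below in 37.0%, 45.7%, 21.6% and 11.1% of the flank bins, against 17.6%, 20%, 12.7% and 6.25% of all bins. At each viewpoint the share above was smaller, and the share below larger, in the flank than over all bins of the region. In the near bins alone the share above was close to that of the region for INT1, Ed and TEA, and smaller for INT2. The region includes the flank itself, which lowers its share above. Set against only the bins outside the flank, the near bins had a smaller share above at each viewpoint. In the far bins alone the share below was larger than that of the region at each viewpoint.

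Set side by side over the viewpoints, 10 of the 23 near bins had a DN mean above the B mean at all 4 viewpoints, and 0 of the 23 far bins did. A DN mean below the B mean at all 4 was found in 12 of the 23 far bins and 0 of the near bins. These counts were made in the flank only. Over all bins tested the median fitted difference was above 0 at each viewpoint. On the log2 scale it was 1.33 for INT1, 0.69 for INT2, 1.03 for Ed and 1.41 for TEA. A higher DN mean was thus not particular to the near bins. No bin had both DN libraries below both B libraries at all 4, and 4 far bins had this at 3 viewpoints, starting at 55.40, 55.58, 55.64 and 55.76 Mb. The bin at 55.40 Mb held 0.0781% and 0.146% of the INT1 value in DN cells, against 0.201% and 0.267% in B cells. From TEA it held 0.00910% and 0.0933% in DN cells, against 0.174% and 0.276% in B cells. These bins were singled out after their values were seen.

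Whether the difference between the cell types itself differed between Ed and TEA on 1 side and INT1 and INT2 on the other was tested in 1 fit over the 16 libraries. It called 0 of 45 flank bins and 0 of 141 bins of the region (0%) in limma, with 6 flank bins at an unadjusted p under 0.05. Those 6 started at 54.90, 54.98, 55.06, 55.14, 55.32 and 55.72 Mb, and the smallest adjusted p among them was 0.329. Bins outside the flank passed the unadjusted threshold too. The smallest unadjusted p of the limma fit, 0.00371, was in one of them, starting at 53.42 Mb. At 55.06 Mb the fitted DN minus B differences were 0.70 for INT1, 1.02 for INT2, 3.40 for Ed and 2.06 for TEA on the log2 scale. At 55.72 Mb they were -2.37 for INT1, -5.59 for INT2, 1.85 for Ed and 0.21 for TEA. The fit gave 0 calls in the flank under each of its alternatives too.

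Set against the stretch at equal distance on the other side of the viewpoint, which holds the Trav segments, the flank weighed less in DN cells. From INT1 the flank's value was 0.877 and 1.08 times that of its mirror in DN cells, against 4.79 and 3.61 times in B cells. From INT2 it was 0.8003 and 0.880 times in DN cells, against 3.81 and 4.61 times in B cells. From Ed it was 0.291 and 0.394 times in DN cells, against 1.496 and 0.745 times in B cells, and from TEA 0.355 and 0.490 times in DN cells, against 1.304 and 1.12 times in B cells. The groups did not overlap at any viewpoint, and the closest DN and B libraries, for Ed, were 0.92 apart on the log2 scale while the B libraries of Ed were 1.01 apart.

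**Figure D5:**
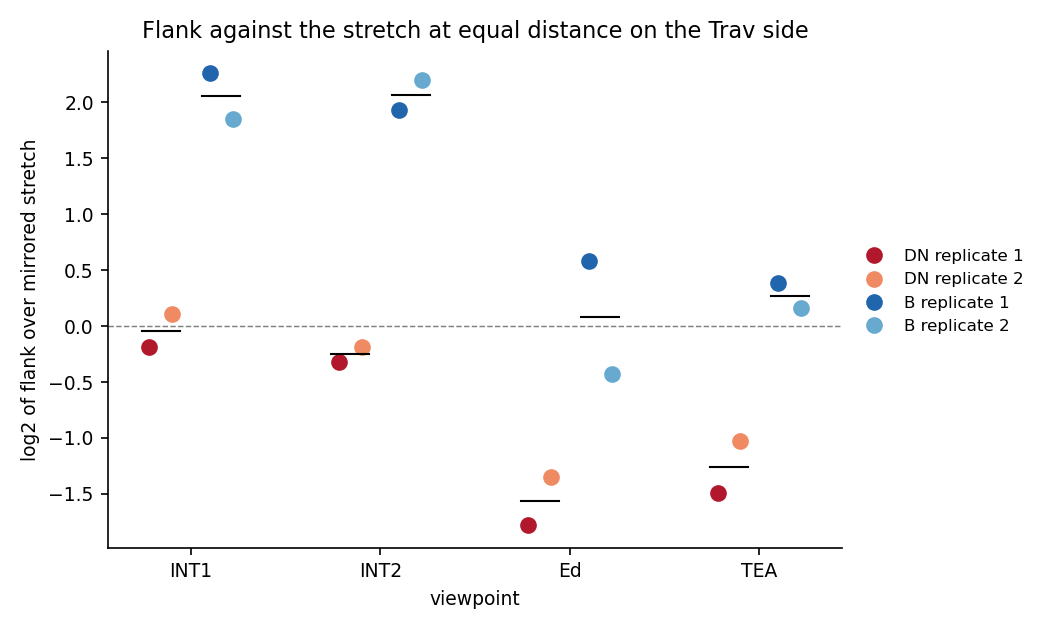
Log2 of the flank's value over that of the stretch at equal distance on the other side of the viewpoint, 1 point for each library with bars at the group means. DN points lie below B points at all 4 viewpoints, with group means 1.53 to 2.32 apart on the log2 scale.

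The DN minus B difference in the log2 ratio was -2.10 for INT1, -2.32 for INT2, -1.64 for Ed and -1.53 for TEA, each with p = 0.3333 in an exact two-sided permutation test and 0.3333 after adjustment over the 4 viewpoints. Library size cancels in the ratio. The mirror differed more between the cell types than the flank did. It held 11.1% ± 2.11 of the chromosome 14 value in DN cells and 2.30% ± 0.549 in B cells for INT1 (SD, n = 2 each), and 15.5% ± 5.11 in DN cells and 4.02% ± 0.738 in B cells for TEA. The flank's own share for INT1 was 11.03% ± 3.62 in DN cells and 9.44% ± 0.390 in B cells. Counting each captured fragment once gave smaller differences, of -0.95 for INT1, -1.09 for INT2, -0.85 for Ed and -0.49 for TEA, in the same direction.

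Where contacts faded was read against the far level, the mean 20 kb bin of chromosome 14 more than 5 Mb from the viewpoint in the same library. That level was lower in DN cells at every viewpoint, at 0.00565% and 0.00316% of chromosome 14 for INT1 in DN cells, against 0.00946% and 0.00974% in B cells, and the part of this in the folds that follow was not tested. The flank's mean bin was 32.5 and 93.6 times the far level for INT1 in DN cells, against 21.1 and 21.7 times in B cells. For INT2 it was 24.6 and 65.1 times in DN cells, against 15.6 and 16.1 times in B cells. For Ed it was 6.95 and 17.3 times in DN cells, against 6.36 and 5.13 times in B cells, and for TEA 16.5 and 70.1 times in DN cells, against 7.74 and 8.89 times in B cells. The next 0.92 Mb, from 55.80 to 56.72 Mb, was at 2.59 and 9.15 times the far level for INT1 in DN cells, against 3.76 and 2.64 times in B cells. For Ed it was at 0.930 and 0.833 times in DN cells, against 1.98 and 1.19 times in B cells. For INT2 it was at 3.31 and 7.12 times in DN cells, against 2.26 and 3.13 times in B cells, and for TEA at 2.96 and 8.89 times in DN cells, against 2.15 and 2.14 times in B cells. As folds of the far level, DN was thus above B for INT2 and TEA, below it for Ed and overlapping for INT1. As a share of chromosome 14 the order was reversed for INT2 and TEA. That stretch held 0.846% and 1.13% for INT2 in DN cells, against 1.26% and 1.70% in B cells. For TEA it held 0.755% and 1.19% in DN cells, against 1.27% and 1.22% in B cells. Ed was lower in DN cells and INT1 overlapped on that scale too.

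By means of 3 bins, contacts from INT1 stayed above 2 times the far level to the end of the flank and those from Ed did not. Single INT1 bins fell below that level, such as the bin of 1 fragment at 55.48 Mb. The reach was the start of the first 3 consecutive bins whose mean was under 2 times the far level, or the flank's end at 920 kb where there were none. From INT1 it was 920 kb in all 4 libraries, although at 3 times the far level it was 740 kb in DN replicate 1, and as a share of fragments captured 840 kb in DN replicate 1 and 680 kb in B replicate 1. From INT2 it was 920 and 920 kb in DN cells, against 700 and 920 kb in B cells, and from TEA 840 and 920 kb in DN cells, against 680 and 820 kb in B cells. From Ed it was 380 and 480 kb in DN cells, against 0 and 20 kb in B cells. By this measure the DN samples reached farther than the B samples for Ed and TEA, with p = 0.3333 in an exact two-sided permutation test and 0.667 after adjustment over the 4 viewpoints, and the groups overlapped for INT1 and INT2, with p = 1. The cutoff was lower in DN libraries, since it followed each library's own far level. For TEA that level was 0.00555% and 0.00290% of chromosome 14 in DN cells, against 0.0128% and 0.0125% in B cells. For Ed it was 0.00579% and 0.00587% in DN cells, against 0.0102% and 0.00971% in B cells. A cutoff common to the libraries was not tested. At 3 times the far level the TEA groups overlapped too, with 600 and 920 kb in DN cells, against 680 and 660 kb in B cells, and the INT2 difference turned to -150 kb. With the median in place of the mean far level, both TEA B libraries reached 920 kb. Counted as the share of fragments captured, the INT2 difference was -50 kb. Ed B libraries had 3 low bins at the near end and contacts beyond them, as the 26.9% and 41.5% of their flank value in the last 230 kb show, so a short reach did not mean that the far end was empty.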

How the data were processed

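The deposited files hold, for each HindIII fragment with reads, a value in RPM that the authors scaled to the mapped reads of the library. Padding of 40 bp around each fragment is recorded in the file headers. The submitters' processing notes name CASAVA, Bowtie and the build mm9, with no versions or settings. Values were whole multiples of 1 read within 0.1 read in 100% of cases at all 4 viewpoints. Recovered reads were used for INT1, INT2 and Ed only, and no read number is given for TEA. The authors' 8 files of mean values were not used. A fragment absent from a file was taken as 0.

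Each library was scaled to 1000000 of its chromosome 14 value without the viewpoint and its 2 neighbours. Sums were tested as log2(sum + 10), with bins kept at a mean of at least 50 over the 4 libraries and none within 20 kb of the viewpoint, in limma 3.58.1 (R 4.3.3) with a mean-variance trend, two-sided, with Benjamini-Hochberg adjustment and a threshold of 0.05. Fold changes on this scale understate those of low bins. Positions, ratios and reach were compared by exact permutation. The limma fit was also run on simulated data with known changes. Those data had the same spread in every bin of a viewpoint, unlike the real bins, so that run does not bear on the calls. Alternatives were other library sizes, TMM factors, capped fragments (95th percentile), fragments counted once, pseudocounts of 1 and 50, no trend, no filter, edgeR 4.0.16 and DESeq2 1.42.0 on recovered reads, each sample left out, and the replicate number as a block. In edgeR the library size was the chromosome 14 reads, while DESeq2 estimated its own size factors from the bins tested.

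Members, bins and tests were chosen with earlier results of these data known. Named bins were those past the threshold with groups apart, the 5 highest of each viewpoint, and the first and last, with local highs. Bins named for their pattern over the viewpoints or for an unadjusted p were picked after their values were seen. Named fragments were the 5 with the highest mean share. Replicate numbers did not pair the samples: the correlation of same-numbered deviations was 0.0018 for INT1, 0.074 for INT2, -0.050 for Ed and -0.082 for TEA. No mm9 genome or annotation was used here, so no sequence or gene is given for a bin.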

Additional observations from a re-analysis of the deposited data

How the results depend on the processing

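With 2 samples a group no exact test could pass the threshold, and 1 library could decide a bin. The ratio to the mirrored stretch kept its direction at all 4 viewpoints under each alternative run, as did the 50% position, except that for INT1 the groups overlapped (-0.18 kb) with each fragment counted once. The flank's total and its called bins did change. The cause of each change was not tested. The flank's log2 difference with library size as the excess over other chromosomes was -0.62 for INT1, -1.29 for INT2, -0.61 for Ed and -1.08 for TEA, and for INT2 it was 1.01 with all chromosomes, 1.39 with TMM factors, 0.74 with capped fragments and 0.70 with each fragment counted once (limma adjusted p 0.0359, a call). With 1 sample left out the INT1 difference ranged between -0.16 and 0.53, that of INT2 between -0.48 and 0.24, that of Ed between -0.50 and 0.84 and that of TEA between -0.19 and 0.96.

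Flank bins called higher from INT1 numbered 5 of 46 with all chromosomes, against 69 of the 142 bins of the region. They numbered 0 with the excess, TMM factors, capped fragments, fragments counted once, no trend, the region's own total or all 16 libraries in 1 fit. In those fits 6 to 41 bins of the region were called higher. Flank bins called lower from INT1 numbered 12 with the excess and with the region's total (13 over the whole region in each). They numbered 17 with TMM factors (18 over the region), 1 with capped fragments (1), 2 in edgeR (2) and 24 in DESeq2 (31). They numbered 0 with all chromosomes, fragments counted once or the joint fit. Leaving out 1 sample gave 0 higher and 0 to 1 lower. From INT2, 4 of 46 were higher with all chromosomes, 8 with capped fragments and 10 counted once. Over the region's 145 bins the numbers were 34, 40 and 50 in the same order. In DESeq2 12 flank bins were lower, against 14 over the region, and in the joint fit 2, against 2. From Ed, 5 of 37 were higher counted once, against 41 of the region's 118 bins. In the joint fit 4 of 45 were higher and 3 lower, against 17 and 5 of the 141 bins of the region. Lower flank bins numbered 1 in edgeR and 6 in DESeq2, against 1 and 9 over the region. From TEA, 1 of 45 was higher with all chromosomes, 2 with capped fragments and 3 counted once, against 30, 23 and 32 of the region's 144 bins.

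The replicate number as a block was an alternative that the check of pairing did not bear out. With it, INT1 had 0 flank bins higher and 0 lower, INT2 had 1 higher and 2 lower, and Ed and TEA had 0. Over the region that fit called 11 bins higher for INT1, 23 for INT2, 1 for Ed and 17 for TEA. It called 2 lower for INT2 over the region. The reach differed by -90 kb for INT1 and -150 kb for INT2 at 3 times the far level, by 80 kb and -50 kb as the share of fragments captured, and by 0 to 220 kb for INT2 with 1 sample left out. The median far level was 0 in at least 1 library of each viewpoint, so it gave no group difference, and the reach was 920 kb in all 7 libraries in which it was above 0, both TEA B libraries included. edgeR and DESeq2 were not run for TEA.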
